A study of Mus musculus with 12 samples.

Results

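The response of control mouse skin to injury was measured by comparing 3 libraries of skin taken 14 days after injury with 3 libraries of uninjured skin, 6 of the 12 libraries of the series. The members were chosen by label, as all control libraries of either skin state. The mice were labelled as C57BL/6 & B6D2, aged 3 months, and all carried Prss56Cre and the R26tdTom reporter, so the controls also carried the Cre driver, which acts in boundary cap cells of the nerve roots and their descendants, and the red fluorescent reporter. The other 6 libraries, 3 uninjured and 3 injured, came from mice that carried in addition Nf1flox/-, and they served here to estimate the spread and for 1 closing comparison. RNA came from whole skin, so each value is an average over epidermis, hair follicles, dermis, fat, muscle and vessels, and fewer cells of a type cannot be told apart from less RNA per cell. The labels number the samples of a group but do not say that they were separate animals, so p-values measure the spread between these samples. They do not describe the kind of wound or the body site either.

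Skin closes a wound by moving keratinocytes, the cells of the epidermis, over a new bed of fibroblasts, vessels and immune cells, which lay down collagen and later remodel it. Keratinocytes at a wound edge switch on keratins and cornified envelope proteins that resting epidermis makes at low levels. Hair follicles cycle between rest and growth. A growing follicle builds an inner root sheath and a hair shaft from specialised keratins and from keratin-associated proteins, which cross-link the keratin filaments.

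The libraries held between 8817013 and 16809687 counts each. Markers of sex split with skin state. The transcript Xist, which marks female cells, was at 0.709 to 2.95 raw CPM (counts scaled to the library total) in uninjured and at 436 to 603 in injured samples. The Y-linked gene Ddx3y had 81.0 to 93.3 and 0 to 0.0595 CPM. Injury and sex therefore cannot be told apart here, and only autosomal genes are described. Defining genes of skin were present in all 6 libraries, with the basal keratin Krt14 at 2974 to 8941 CPM and the collagen gene Col1a1 at 308 to 3426 CPM. Uninjured libraries also held more stray signal. Odorant and vomeronasal receptor genes, which serve as a background here, had 0.332, 0.263 and 0.0944 CPM per kb in uninjured libraries 1 to 3 and 0.00225 to 0.00641 in injured ones. Transcripts like ribosomal RNA took 1.88% to 2.90% of uninjured and 4.14% to 11.2% of injured counts, most in injured library 1. The part of these differences in the results was not tested, except where a value without them is given. Such values come from a fit with the share of ribosomal RNA-like counts as a term (the ribosomal RNA covariate), from subtracting the receptor background per kb from each library, chosen after the data were seen, or from leaving out uninjured libraries 1 and 2, the ones of highest background. The last of these leaves 1 uninjured library, assumed to vary like the other groups, so fewer genes can be called in it, and list medians are given beside its counts.

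Over 22945 autosomal genes that passed the count filter, edgeR called 12728 (55.5%) at an adjusted p under 0.05. Of these, 5225 (22.8%) were higher in injured skin and 7503 (32.7%) were lower, and 14353 (62.6%) did not overlap between the groups. Here and below, called means past that threshold, levels are CPM scaled by TMM, which corrects for library composition, and fold changes are those of the edgeR fit. The median log2 fold change of all tested genes was -0.21. More than a 10-fold difference was seen for 448 genes called higher and for 3244 called lower. The calls depended on level. Among 4722 genes averaging under 1 CPM, 2.05% were called higher and 61.6% lower, whereas among 2001 genes of at least 100 CPM 42.6% were called higher and 23.3% lower. Of 1445 autosomal receptor genes 424 passed the count filter, which they could do only through the libraries with more stray signal, and 411 of these were called lower. After background subtraction 5150 genes (24.9% of 20659) were called higher and 5597 (27.1%) lower, and 4797 and 5134 of the original calls remained. Without uninjured libraries 1 and 2, 2348 (9.37% of 25057) and 3655 (14.6%) were called. The genes described below were therefore taken mostly from higher levels. Over all genes 22.8% were called higher and 32.7% lower, and among protein-coding genes 27.7% and 27.7%. Among 8671 genes of 10 to 100 CPM the shares were 34.8% and 19.2%. Every list count is to be read against these shares and those given for genes of at least 100 CPM. The calls depended on exonic length too. Among protein-coding genes of at least 10 CPM, 78.2% of those up to 1 kb were called higher. The share was 64.5% for 1 to 2 kb and 23.8% for over 8 kb. Lists of short genes are to be read against these shares as well.

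**Figure D1:**
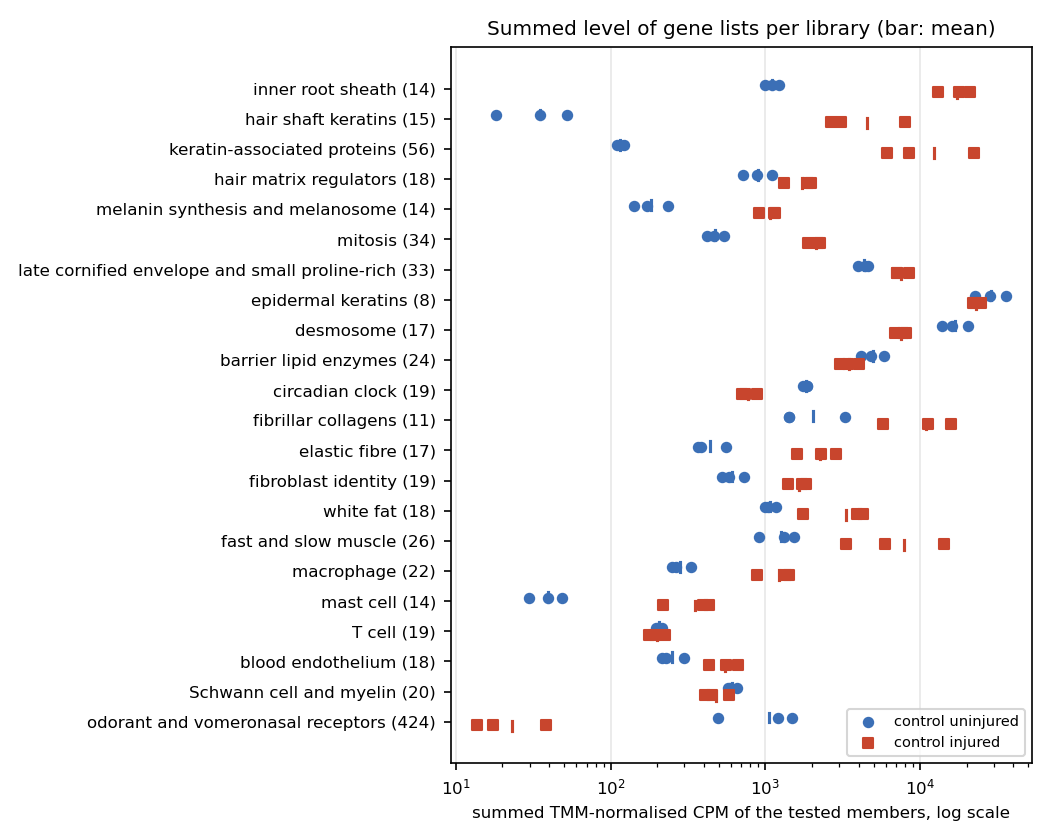
Summed TMM-normalised CPM of 22 gene lists (rows) on a log axis, for each of 3 uninjured (circles) and 3 injured (squares) control libraries. Bars mark the group means, and brackets give the number of tested genes. The sums take in all autosomal members, also those that did not pass the count filter, although the axis label names the tested members. The inner root sheath, hair shaft, keratin-associated, fibrillar collagen, elastic fibre, muscle and mast cell lists sat higher in every injured library than in any uninjured one, while the desmosome, clock and receptor lists sat lower.

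Structural genes of the growing hair follicle had the 3 highest medians of the 73 gene lists. Among 14 inner root sheath genes 13 rose and 1 fell, all 15 hair shaft keratins rose, and 55 of 56 keratin-associated protein genes rose. Their median log2 fold changes were 9.19, 9.10 and 10.06, against -0.21 over all genes. The keratin-associated genes summed to 110.2, 122 and 114 CPM in uninjured libraries 1 to 3 and 8419, 6133 and 22231 in injured libraries 1 to 3. With the 2 genes that had no count in uninjured skin set to a bound of 3 counts, the last median was 10.00. Every injured library was far above every uninjured one, and injured library 3 was the highest. Krt83, a keratin of the hair cortex, was at 0.846, 0.614 and 0.0631 CPM in uninjured and 769, 501 and 1792 in injured libraries (log2 fold change 11.05 ± 0.88 SE, edgeR adjusted p = 6.02e-06). Tchh, trichohyalin, which hardens the inner root sheath, was at 4.42, 5.53 and 8.01 CPM uninjured and 3029, 2079 and 3429 CPM injured, a 472-fold rise. Prr9, a proline-rich protein gene of the epidermal differentiation complex, was at 2.82, 1.77 and 1.45 CPM uninjured and 2479, 1761 and 2867 CPM injured (1190.5-fold). The exception among the sheath genes was Gata3, a transcription factor that the epidermis also makes, which fell from 611 ± 77.4 to 332 ± 46.8 CPM (n = 3). Many keratin-associated genes have near-identical copies, between which reads could be split. Without uninjured libraries 1 and 2, 10 of the sheath genes, 15 of the shaft keratins and 54 of the keratin-associated genes were called higher (medians 9.57, 9.59 and 11.67).

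The upstream bases of these genes are shown because they share a feature that the measurements did not use. The first start that RefSeq (GRCm38.p6) lists for a gene was taken, and 250 bases before it were searched on both strands. A TATA box (TATAAA) was found in 47 of 60 promoters (78.3%) of shaft keratin and keratin-associated genes and in 8 of 13 (61.5%) of inner root sheath genes. Over 25748 autosomal promoters of the same length it was found in 13%, and among the genes called higher in 10.1%. A match is a description of the letters and not evidence of use. In 3 examples, 1 from each list, the last 130 bases before the start are given 5′ to 3′ with the TATA match in capitals, which began 29 or 30 bases before the start:
Krt25 chr11:99322952-99323081 (minus strand): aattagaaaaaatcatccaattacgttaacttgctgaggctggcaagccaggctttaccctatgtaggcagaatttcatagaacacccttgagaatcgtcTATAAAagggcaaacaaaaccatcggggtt
Krt31 chr11:100050552-100050681 (minus strand): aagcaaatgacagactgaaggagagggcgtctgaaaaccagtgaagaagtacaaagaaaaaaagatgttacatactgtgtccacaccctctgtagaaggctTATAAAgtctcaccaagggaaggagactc
Krtap8-1 chr16:89487953-89488082 (minus strand): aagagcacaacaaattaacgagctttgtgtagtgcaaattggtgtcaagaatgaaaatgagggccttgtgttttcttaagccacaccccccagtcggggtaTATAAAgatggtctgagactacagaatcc

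Regulators of the hair matrix, the dividing cells at the base of a growing follicle, moved with the structural genes but by less. Of 18 tested, 14 rose and none fell (median log2 2.13). Hoxc13, a homeobox factor of hair keratin genes, was at 3.1, 3.84 and 3.79 CPM in uninjured and 104, 56.4 and 99.4 in injured libraries (24.1-fold, adjusted p = 8.38e-06). Foxe1, a forkhead factor of the follicle, went from 0.647 ± 0.314 to 55.7 ± 16.9 CPM (n = 3, 81.9-fold). Injured library 2 was the lowest of its group for both genes but lay above every uninjured library. Of 17 genes of follicle stem cells and the resting follicle 10 rose and 2 fell (median 1.14). Lhx2, a factor of the follicle bulge, rose 5.24-fold and Tbx1 rose 10.3-fold, whereas Krt15, a keratin of the bulge and of basal epidermis, was at 6673, 5216 and 4701 CPM uninjured and 838, 1854 and 1369 CPM injured and fell 4.08-fold. Lgr6, a stem cell receptor of the upper follicle, fell 4.1-fold and Lgr5, its relative in the lower bulge, rose 2.76-fold. Of 19 genes of the dermal papilla, the fibroblast cluster that instructs the follicle, 10 rose and 1 fell (median 0.86). Without uninjured libraries 1 and 2 the median was 0.92 for the stem cell list and 1.17 for the papilla list. Trps1 rose from 15.1 ± 3.61 to 58.6 ± 14.8 CPM, and Sox18, which endothelium also makes, rose 8.7-fold.

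Hedgehog and WNT signals, which drive follicle growth, changed in part. Shh, the hedgehog ligand made by the hair matrix, was at 1.5, 0.537 and 0.442 CPM in uninjured and 6.75, 6.4 and 8.49 in injured libraries, and its target genes Gli1 (5.19-fold) and Ptch1 (3.22-fold) rose. In the hedgehog list 8 of 15 genes rose and 3 fell. Of 47 WNT genes 17 rose and 7 fell, or 3 with the ribosomal RNA covariate. The ligand Wnt7b, at 95.4, 146 and 196 CPM uninjured and 35.5, 30 and 29.4 CPM injured, fell 4.61-fold and Wnt3 fell 2.06-fold, while the ligand Wnt11 rose 11.4-fold. The secreted inhibitors Sfrp2 and Sfrp4 rose 13.1-fold and 17.5-fold. Bmp3, a BMP family member, fell from 31.1 ± 14.3 to 3.66 ± 1.02 CPM, and Fgf5, a factor known to end hair growth, rose from 0.74 ± 0.357 to 5.72 ± 1.6 CPM.

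Pigment genes rose with the hair genes. Of 14 genes of melanin synthesis and the melanosome 11 rose and 1, Rab27a, fell (median 2.96). Pmel, the fibril protein of the melanosome, was at 7.15, 7.37 and 11.1 CPM uninjured and 187, 144 and 211 CPM injured, a 21-fold rise (adjusted p = 0.000257). Tyrp1, an enzyme of melanin synthesis, rose 16.4-fold from 3.39 ± 2.3 to 57.1 ± 14.4 CPM. Mitf, the master factor of melanocytes, went from 9.84 ± 2.3 to 29 ± 7.12 CPM (2.93-fold), and Kitl, the ligand of the melanocyte receptor Kit, rose 3.01-fold; both were singled out after their values were seen.

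Genes of mitosis rose almost as a whole. Of 34 tested, 32 rose and 1 fell, with a median log2 fold change of 1.72. Ube2c, the ubiquitin-conjugating enzyme of the anaphase-promoting complex, was at 102, 54.6 and 80.4 CPM in uninjured and 862, 1216 and 437 in injured libraries (10.6-fold, adjusted p = 0.00101). Cdc20, the activator of that complex, was at 9.5, 11.1 and 18.2 CPM uninjured and 64.6, 57.6 and 87 CPM injured (5.37-fold). The groups did not overlap for either gene, as was so for 62.6% of all genes, although the injured values of Ube2c differed by more than 2-fold. Ttk, a spindle checkpoint kinase, was the member that fell, from 34.2 ± 7.32 to 14.2 ± 3.04 CPM. DNA replication genes moved less, with 13 of 29 higher, 2 lower and a median of 0.45; without uninjured library 2, 7 were higher. Mcm6, a helicase subunit, was among the members that fell (1.69-fold), a call that was lost without uninjured library 3 (adjusted p = 0.0899). Of 29 tested histone genes of the replicating cell 16 rose and 1 fell. Of the mitosis genes 20 were called higher once uninjured libraries 1 and 2 were left out (median 1.51). Cdkn1c, which encodes the cell cycle inhibitor p57, rose 6.62-fold.

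Promoters of the mitosis list held the letters of the CCAAT box (CCAAT, the site of factor NF-Y) in 20 of 28 cases (71.4%), against 34.3% of all autosomal promoters of the same length and 34.6% among genes called higher. The cell cycle homology region (TTTGAA, known as CHR) was found in 8 of 28 (28.6%), against 15.9% of all promoters and 11.6% of genes called higher. Neither motif was particular to this list: CCAAT was found in 65.2% of DNA replication and 68.8% of clock promoters, and TTTGAA in 35% of shaft keratin and keratin-associated promoters. In 3 members that hold both, chosen after the search, the last 130 bases before the start carry the matches in capitals on either strand, where ATTGG and TTCAAA are the reverse complements of the motifs, and no matches overlap:
Cdc20 chr4:118437344-118437473 (minus strand): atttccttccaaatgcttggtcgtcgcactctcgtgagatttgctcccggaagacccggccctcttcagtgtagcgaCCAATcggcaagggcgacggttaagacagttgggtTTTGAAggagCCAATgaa
Cdk1 chr10:69352913-69353042 (minus strand): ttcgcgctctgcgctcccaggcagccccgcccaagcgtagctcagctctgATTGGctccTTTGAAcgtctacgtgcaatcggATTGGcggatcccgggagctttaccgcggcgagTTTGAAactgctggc
Ube2c chr2:164769799-164769928 (plus strand): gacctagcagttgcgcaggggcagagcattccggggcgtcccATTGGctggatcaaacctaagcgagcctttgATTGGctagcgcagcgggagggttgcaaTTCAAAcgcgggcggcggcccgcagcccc
Of these genes, Cdk1, the central mitotic kinase, was at 15, 11.7 and 14.4 CPM in uninjured and 86.4, 72.9 and 100.2 in injured libraries (6.29-fold). The CHR match nearest to the start lay 15 to 29 bases before it in all 3 promoters.

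**Figure D2:**
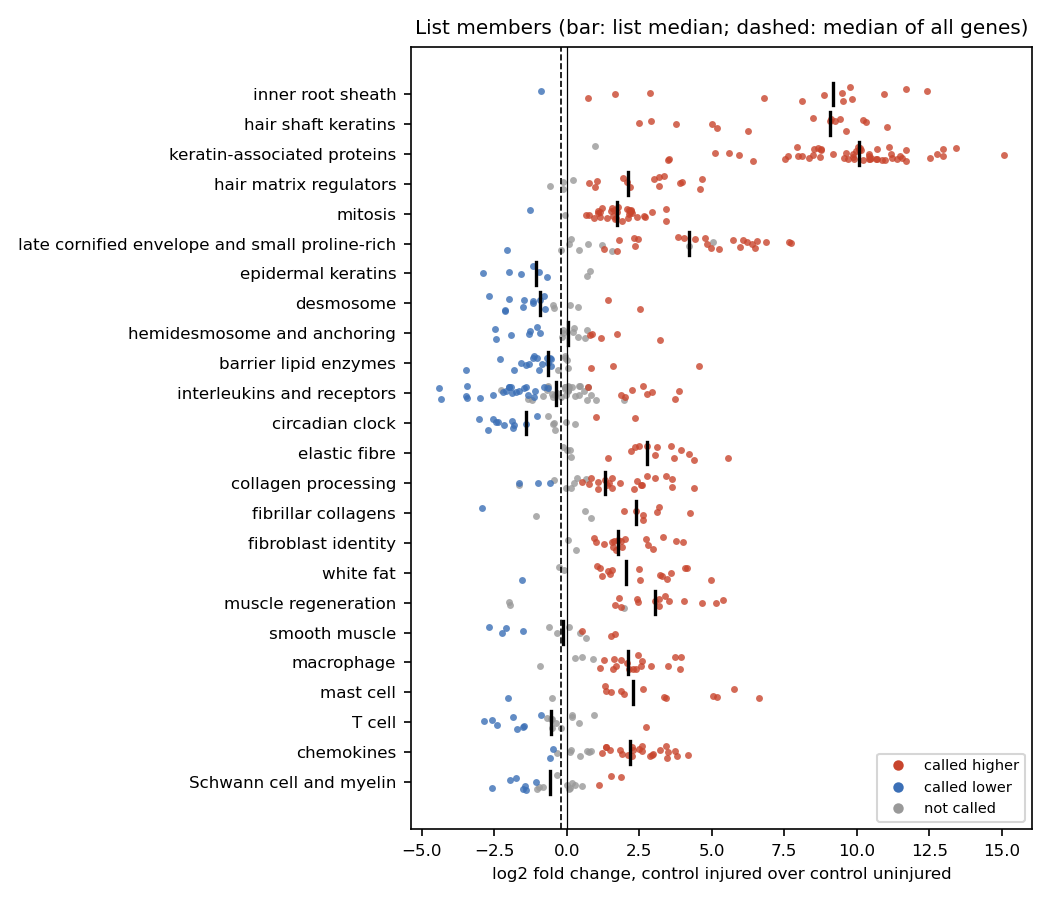
Log2 fold change (horizontal axis, injured over uninjured control skin) of every tested member of 24 gene lists, coloured by whether edgeR called it higher, lower or not at all, with a bar at each list median and a dashed line at the median of all genes (-0.21). The 3 hair lists had medians above 9, and the epidermal keratin, desmosome, clock, T cell and Schwann cell lists had medians below the line.

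Keratins of the interfollicular epidermis were lower in injured skin in the fit of all libraries, which depended in part on uninjured library 3. Of 8 epidermal keratins 6 fell and none rose (median -1.05). Krt77, a keratin of the layers above the basal one, was at 6627, 7257 and 6581 CPM in uninjured and 2572, 2268 and 1964 in injured libraries (3.01-fold lower, adjusted p = 0.000124). Krt80 fell 7.49-fold, from 669 ± 147 to 89.2 ± 47.2 CPM. The main basal keratin, Krt14, stood at 2974, 4032 and 7161 CPM uninjured and 8941, 7206 and 8688 CPM injured and was not called (adjusted p = 0.0595), but it was called higher without uninjured library 3 (log2 1.35, adjusted p = 0.00588). Krt10 (1.92-fold lower), Krt5 (1.59-fold lower) and Krt2 (3.94-fold lower) lost their calls without uninjured library 3, Krt10 also without injured library 1 or 3, Krt5 without uninjured library 2 or injured library 2 or 3, and Krt2 without injured library 1 or 2. Leaving out uninjured library 3 left 3 lower and 2 higher calls in this list (median -0.75).

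The keratins induced at wound edges stood apart in 1 uninjured library. Krt6a was at 14.2, 14.9 and 367 CPM in uninjured libraries 1 to 3 and 4396, 1343 and 2380 in injured ones. Krt16 was at 3.48, 3.68 and 291 CPM uninjured and 4049, 1414 and 2846 CPM injured, and Krt6b at 0.376, 0.921 and 156 CPM uninjured and 2849, 834 and 1569 CPM injured. Every injured library was above every uninjured one, but uninjured library 3 was far above its group, and the genes were not called (adjusted p = 0.0599, 0.103 and 0.126). Without uninjured library 3 the log2 fold changes were 7.65, 9.70 and 11.45 and all were called (adjusted p = 0.00742, 0.0145 and 0.0191). In that setting 6 of 6 wound and companion layer keratins were higher instead of 3. The list median was 4.07 in the fit of all libraries and 6.00 without uninjured library 3. It was 3.02 without uninjured libraries 1 and 2. Krt6a and Krt6b are closely similar in sequence, so that reads could be split between them. Krt75, of the companion layer of the follicle, was at 22.7, 18.7 and 43.6 CPM uninjured and 425, 271 and 481 CPM injured and rose 13.8-fold.

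Cornified envelope genes, whose proteins are cross-linked under the surface of the dying keratinocyte, changed in both directions. Of 33 tested late cornified envelope and small proline-rich genes 23 rose and 1 fell (median 4.23). Lce3f, of the group known to rise after barrier damage, was at 0.188, 0.0767 and 0.631 CPM uninjured and 48.5, 61.1 and 94.2 CPM injured (205-fold, adjusted p = 0.000149), and Sprr2d was at 0.47, 0.614 and 2.27 CPM uninjured and 102, 89.4 and 131 CPM injured. Lce1m, of the group made by normal epidermis, went the other way, from 2298 ± 381 to 548 ± 172 CPM (n = 3). Without uninjured library 2 the list had 15 rises, and without libraries 1 and 2 it had 6 (median 3.12). The related filament-binding genes split too. Flg, filaggrin, was at 247, 226 and 482 CPM in uninjured and 1014, 1802 and 1725 in injured libraries and rose 4.75-fold (adjusted p = 0.0111), whereas Flg2 was at 1964, 1995 and 1425 CPM uninjured and 310.5, 523 and 398 CPM injured and fell 4.37-fold. Rptn, repetin, rose 47.8-fold from 0.752, 0.767 and 18.4 CPM in uninjured libraries 1 to 3, again with library 3 the highest. Lor, loricrin, and Ivl, involucrin, were not called (log2 -0.28 and -0.35). Flg, Rptn, Lor and Ivl were singled out after their values were seen.

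Desmosome genes of the epidermis were mostly lower. Of 17 genes of the desmosome, the junction that ties keratinocytes to each other, 11 fell and 2 rose (median -0.93), and the list summed to 13912, 15984 and 20257 CPM in uninjured and 6910.2, 7752 and 8052 in injured libraries. Dsc3, a desmocollin of the lower layers, fell from 1299 ± 397 to 297 ± 30.2 CPM (4.37-fold), and Dsc1, of the upper layers, fell 6.42-fold. Dsg4, the desmoglein of the hair shaft, rose 5.69-fold. Of 20 genes that anchor the epidermis to the basement membrane 5 rose (3 with the ribosomal RNA covariate) and 7 fell. These shares lay near the 22.8% and 32.7% of all genes. Among genes of at least 100 CPM 42.6% were called higher and 23.3% lower, and among those of 10 to 100 CPM 34.8% and 19.2%. Col17a1, a collagen that spans the membrane of the basal keratinocyte, was at 1029, 1226 and 1775 CPM uninjured and 189.8, 300.3 and 229.9 CPM injured. Lama3 and Lamb3, chains of laminin-332, fell 3.77-fold and 5.43-fold. Nid1 and Nid2, nidogens that dermal cells make, rose 9.26-fold and 3.29-fold. Of the desmosome genes 7 were called lower with the ribosomal RNA covariate (median -0.70), 8 without uninjured library 3 (median -0.54) and 11 without uninjured libraries 1 and 2 (median -1.36). Gap junction genes of the activated epidermis were far higher. Gjb2, connexin 26, was at 5.83, 6.06 and 27.6 CPM uninjured and 493, 371 and 526 CPM injured (34.8-fold, adjusted p = 0.000666), and Gjb6, connexin 30, rose 21.8-fold, while Cldn1, the claudin that seals the epidermal barrier, fell 2.58-fold.

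The lipid barrier of the epidermis is made of ceramides, cholesterol and fatty acids. Of 24 enzymes and transporters that make it 16 fell and 3 rose (median -0.66). Lipn, a lipase of the outer layers, was at 47.1, 58.9 and 57.5 CPM in uninjured and 1.33, 6.97 and 6.21 in injured libraries (11.1-fold lower). Sptlc3, a subunit of the enzyme that starts ceramide synthesis, fell 4.88-fold, and Alox12b, a lipoxygenase needed for the lipid envelope, fell 2.66-fold. Degs2, which makes phytoceramides, was at 3.2, 3.38 and 10.6 CPM uninjured and 144, 121 and 153 CPM injured and rose 23.8-fold. The list had 10 lower calls with the ribosomal RNA covariate (median -0.39), 11 without uninjured library 3, 11 without injured library 1 and 12 without uninjured libraries 1 and 2 (median -0.89). Serpinb7, a protease inhibitor of the epidermis, was at 517, 668 and 587 CPM uninjured and 19.5, 63.6 and 37.5 CPM injured, and its fall of 14.7-fold was among the 20 largest falls of genes averaging at least 5 CPM. Of 18 kallikreins and inhibitors, the proteases that shed the outer layer and their brakes, 10 rose and 2 fell. Klk13 rose 25.4-fold and Klk10 14.9-fold, and Spink5, an inhibitor of kallikreins, fell 2.24-fold.

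All 11 tested Skint genes were lower in injured skin. Skint genes lie together on chromosome 4 (111919392 to 114245028, GRCm38) and encode membrane proteins of the immunoglobulin family that keratinocytes and the thymus make. Skint1 is known to select the γδ T cells that live in mouse epidermis. The family was singled out after its values were seen. Skint10 was at 337, 298 and 326 CPM in uninjured and 14.4, 25.2 and 15.5 in injured libraries (17.4-fold lower, adjusted p = 3.34e-07). Skint5 was at 159, 182 and 156 CPM uninjured and 5.07, 10.6 and 8.62 CPM injured (20.3-fold lower), and Skint9 at 346, 318 and 171 CPM uninjured and 32, 56 and 33.7 CPM injured. Skint1 was at 58.1, 48.2 and 49.7 CPM uninjured and 19.5, 30.1 and 25.5 CPM injured, the smallest change of the family (log2 -1.05 ± 0.26 SE). The groups did not overlap for any of the 11, while 62.6% of all genes had no overlap. Skint5 and Skint10 were named by a rule that required no overlap. The family summed to 1441, 1480 and 1156 CPM in uninjured libraries and 194, 246 and 194 in injured ones. The call of Skint2 was lost without uninjured library 3, injured library 2 or injured library 3 (adjusted p = 0.112, 0.0688 and 0.0764), and that of Skint1 without uninjured libraries 1 and 2 (adjusted p = 0.0672). Skint genes are similar in sequence, so the way shared reads were counted could move reads between members.

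Most genes of T cells and of antigen presentation were not called. Cd207, langerin of Langerhans cells, was at 29.6, 34.2 and 36.8 CPM in uninjured and 7.73, 12.3 and 14 in injured libraries (2.95-fold lower). Cd3g, a subunit of the T cell receptor complex, was at 28.2, 27.3 and 25.5 CPM uninjured and 6.22, 11.1 and 10.8 CPM injured (2.87-fold lower). Trdc, the constant region of the δ chain of the γδ receptor, was at 17.8, 17.5 and 19.2 CPM uninjured and 3.38, 7.85 and 8.35 CPM injured, and its call at adjusted p = 0.0498 was lost after background subtraction (adjusted p = 0.0574) and on leaving out any 1 of the 6 libraries. In the T cell list 8 of 19 genes fell and 1, Thy1, which fibroblasts also make, rose (median -0.55). The falls numbered 4 without uninjured library 1, 5 without injured library 1, 5 without injured library 3 and 4 with the ribosomal RNA covariate. Every call of this list was lost without uninjured libraries 1 and 2, with a median of -0.58. Cd207 and Cd3g had adjusted p = 0.0561 and 0.0603 in that setting.

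Of 64 interleukins and receptors tested 22 fell and 9 rose (median -0.39). The share that fell was near the 32.7% of all genes. Called lower were 27.7% of protein-coding genes and 19.2% of genes of 10 to 100 CPM. Among those that fell were 4 receptor genes of the IL-20 and IL-22 group, by which immune cells act on keratinocytes, singled out for their falls. Il20ra was at 50.3, 53.4 and 69 CPM in uninjured and 4, 7.47 and 4.48 in injured libraries (10.7-fold lower), and Il20rb, its partner chain, at 243, 299 and 326 CPM uninjured and 79.3, 80.5 and 67.6 CPM injured (3.82-fold lower). Il22ra1, the signalling receptor chain of IL-22, fell 11-fold, and Il22ra2, the soluble receptor that binds IL-22, fell 20.2-fold from 56 ± 7.86 to 2.72 ± 1.38 CPM. Il20ra, Il22ra1 and Il22ra2 were named by a rule that required no overlap between the groups. Il20rb, which lies outside the naming rule, did not overlap either, as was so for 62.6% of all genes. Il18r1, a receptor chain of IL-18, fell 7.92-fold, and Il1r2, the decoy receptor of IL-1, was at 198, 198 and 169.7 CPM uninjured and 28.5, 57.5 and 56.1 CPM injured. Il1b rose 13.5-fold, from 0.73 ± 0.423 to 10.3 ± 5.29 CPM, and Il11ra1, which fibroblasts make, rose 6.85-fold.

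Growth factors of the EGF family changed in opposite directions. Btc, betacellulin, was at 258, 383 and 281 CPM in uninjured and 19.6, 32.8 and 23.1 in injured libraries (12.2-fold lower, adjusted p = 3.5e-06), and Ereg, epiregulin, fell 3.68-fold. Hbegf, a ligand known to act in wound closure, was at 8.93, 4.53 and 7.45 CPM uninjured and 68.5, 25.6 and 49.2 CPM injured (6.86-fold higher), and Areg, amphiregulin, rose 2.77-fold. Their receptor Egfr was at 72.5, 82 and 115 CPM uninjured and 91.7, 90.6 and 99.2 CPM injured and was not called (log2 0.06 ± 0.19 SE). The list as a whole had 2 higher and 7 lower of 15 tested. Fgfr2, the keratinocyte receptor of FGF7 and FGF10, fell 3.01-fold. Sema3d, a secreted axon guidance cue, varied little within a group, with 174, 202 and 201 CPM uninjured and 18.1, 18.6 and 18.1 CPM injured (log2 fold change -3.40 ± 0.21 SE, adjusted p = 4.13e-08).

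**Figure D3:**
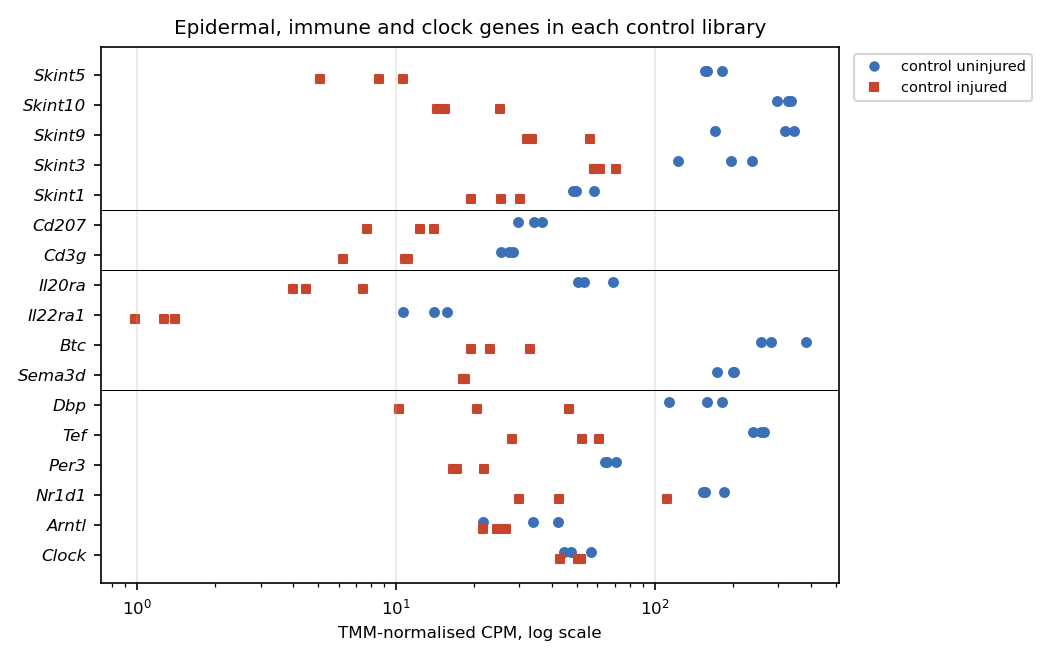
TMM-normalised CPM on a log axis of 17 genes in each of 3 uninjured (circles) and 3 injured (squares) control libraries, in blocks of Skint genes, the immune cell genes Cd207 and Cd3g, receptors and secreted factors, and clock genes. The groups do not overlap for the first 15 genes, as was so for 62.6% of all tested genes, whereas they overlap for Arntl and Clock. Among the 15, Skint5, Skint10, Il20ra, Il22ra1 and Btc were named by a rule that required no overlap.

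Clock-controlled genes were lower in injured skin, while the core activators of the clock were not called. In the circadian clock a pair of activators, made by Arntl and Clock, switches on Per, Cry, Nr1d and PAR-domain genes, which feed back on it. Of 19 clock genes 11 fell and 2 rose (median -1.42). Dbp, a PAR-domain factor, was at 183, 159 and 113 CPM in uninjured and 10.3, 46.8 and 20.6 in injured libraries (5.82-fold lower, adjusted p = 0.000478), with injured library 2 the highest of its group. Tef was at 258, 264 and 240 CPM uninjured and 28.2, 60.9 and 52.5 CPM injured and Hlf at 85.1, 90.4 and 72 CPM uninjured and 9.78, 14.9 and 13.2 CPM injured. Per3 fell 3.59-fold and Per2 5.2-fold. Clock was at 44.7, 47.4 and 56.7 CPM uninjured and 52.1, 43.1 and 50.5 CPM injured (log2 -0.03 ± 0.17 SE), and Arntl at 21.6, 33.9 and 42.4 CPM uninjured and 26.6, 24.5 and 21.7 CPM injured (log2 -0.43 ± 0.25 SE). Nfil3, a repressor that opposes the PAR-domain factors, rose 5.17-fold, from 6.33 ± 3.7 to 33.2 ± 7.22 CPM. The list had 10 lower calls without uninjured libraries 1 and 2 (median -1.31). Per3, Clock and Arntl were named after their values were seen. The time of day of tissue collection is not given in the sources used here, and its part in these differences was not tested.

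The E-box (CACGTG), to which the clock activators bind, was found before 5 of 16 clock genes with a promoter sequence (31.2%), against 6.04% of all autosomal promoters of the same length and 6.74% of genes called lower. The search covered 250 bases only, and it says nothing about sites elsewhere. Ciart and Tef are shown because both hold the letters and both fell:
Ciart chr3:95882229-95882358 (minus strand): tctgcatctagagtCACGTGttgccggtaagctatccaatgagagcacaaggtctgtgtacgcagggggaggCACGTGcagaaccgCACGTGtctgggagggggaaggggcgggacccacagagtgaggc
Tef chr15:81802543-81802672 (plus strand): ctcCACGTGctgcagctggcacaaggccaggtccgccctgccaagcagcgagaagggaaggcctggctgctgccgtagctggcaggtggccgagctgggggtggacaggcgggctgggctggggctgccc
Ciart, a repressor of the clock, was at 25, 30.3 and 29.2 CPM in uninjured and 5.87, 8.74 and 9.42 in injured libraries (3.5-fold lower) and was also named after its values were seen. Per1, with an E-box in the same window, was not called (30.2, 44.8 and 49.7 CPM uninjured and 49.9, 26.1 and 17.7 CPM injured, groups overlapping).

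Dermal matrix genes were broadly higher. Of 11 fibrillar collagens 7 rose and 1 fell, of 31 collagen-processing genes 21 rose and 3 fell, and of 17 elastic fibre genes 13 rose and none fell. Their medians were 2.40, 1.33 and 2.78. Col5a1, which nucleates collagen fibrils, was at 30.4, 20.8 and 70.2 CPM in uninjured and 539, 905 and 847 in injured libraries (18.8-fold), and Col1a1 was at 308, 309.8 and 716 CPM uninjured and 1366, 3426 and 2263 CPM injured (5.29-fold). Uninjured library 3 was the highest of its group for both. Mfap5, a microfibril glycoprotein of the elastic fibre, was at 3.39, 5.45 and 3.28 CPM uninjured and 103, 275 and 194 CPM injured (47.1-fold, adjusted p = 0.000255). Loxl1 and Lox, enzymes that cross-link collagen and elastin, rose 20.9-fold and 6.83-fold, and P3h1, which hydroxylates collagen proline, rose 12.4-fold. The numbers called higher without uninjured libraries 1 and 2 were 3, 14 and 9 (medians 1.72, 1.08 and 2.65), and Col1a1 was no longer among them (adjusted p = 0.0865).

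Genes of wound matrix and of matrix turnover accompanied them. Of 22 matricellular genes 12 rose and none fell. Thbs4, thrombospondin 4, was at 1.69, 2.23 and 0.947 CPM uninjured and 36.7, 101 and 31.5 CPM injured (35.2-fold), Fn1, fibronectin, rose 9.96-fold and Tnc, tenascin C, 10.1-fold. Small leucine-rich proteoglycans, which space collagen fibrils, had 9 of 11 members higher, with Dcn, decorin, going from 198 ± 11.4 to 1184 ± 468 CPM; 5 were higher without uninjured library 2. Of 22 metalloproteinases and inhibitors 13 rose and 2 fell (median 1.16, or 0.94 without uninjured libraries 1 and 2). Mmp13, a collagenase, was at 0.658, 0.153 and 4.67 CPM uninjured and 24, 26.8 and 18.4 CPM injured (12-fold), and Mmp23 rose 9.41-fold. Fibroblast identity genes were higher in 17 of 19 cases (median 1.76), among them Pi16, of adventitial fibroblasts, at 5.17, 6.91 and 3.09 CPM uninjured and 64.8, 85.5 and 91.6 CPM injured (16-fold, adjusted p = 9.7e-07), and Dpt, dermatopontin (13.5-fold). Of the identity genes 9 were called higher without uninjured libraries 1 and 2 (median 2.03).

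Imprinted growth genes, many of which are turned down after birth, were higher in 14 of 20 cases and lower in 2 (median 2.39). H19, a maternally expressed noncoding RNA, was at 1.6, 1.3 and 2.02 CPM in uninjured and 82.9, 266 and 90.3 in injured libraries (88-fold, adjusted p = 0.000367). Peg3, expressed from the paternal allele, was at 7.24, 7.21 and 5.74 CPM uninjured and 46.6, 73.2 and 57.8 CPM injured (8.81-fold), and Igf2, the growth factor next to H19, rose 7.19-fold. Of the imprinted genes 9 were called higher without uninjured libraries 1 and 2 (median 2.43). Injured library 2 was the highest of its group for all 3 genes. It was also highest for muscle genes, described next.

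Skeletal muscle genes were higher but varied widely between injured libraries. The 26 contractile and metabolic genes of fast and slow muscle summed to 1524, 913 and 1324 CPM in uninjured and 5965, 14185 and 3326 in injured libraries, and 21 rose (median 2.73). Of these 4 were called once uninjured libraries 1 and 2 were left out, with a median of 2.79. Without injured library 2 the list had 19 higher and 2 lower calls (median 1.92). Myh1, a fast myosin, was at 16.4, 28.6 and 27.3 CPM uninjured and 226, 551 and 63.5 CPM injured and Tnnc1, troponin C of slow and cardiac muscle, at 0.658, 0.307 and 0.0631 CPM uninjured and 13, 62.4 and 9.89 CPM injured. Among 17 genes of muscle formation 14 rose and none fell (median 3.03), against 10 higher and 2 lower without injured library 2 (median 1.98). Myog, myogenin, which drives myoblast differentiation, was at 0.376, 0.23 and 0.442 CPM uninjured and 8.35, 32.2 and 4.54 CPM injured (41.7-fold), and Mymk, needed for myoblast fusion, rose 35.4-fold. Myh8, the perinatal myosin, went from 3.83 ± 1.57 to 39.2 ± 40.5 CPM. Of 12 smooth muscle genes 3 rose and 4 fell (median -0.12), shares near the 22.8% and 32.7% of all genes. Among genes of 10 to 100 CPM the shares were 34.8% and 19.2%. Myh11, smooth muscle myosin, was at 39.3, 44.2 and 83.2 CPM uninjured and 6.13, 19.5 and 9.62 CPM injured (4.7-fold lower), and Cnn1, calponin, fell 4.32-fold. Acta2, the actin of smooth muscle and myofibroblasts, was at 134, 117 and 175 CPM uninjured and 122, 279.6 and 272 CPM injured and was not called, except without injured library 1 (adjusted p = 0.0166). How much muscle each piece of skin held was not tested.

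White fat genes were higher in 15 of 18 cases and lower in 1, Dgat2 (median 2.03). Cfd, adipsin, was at 146, 37.8 and 18.7 CPM in uninjured and 438, 1420.4 and 1534 in injured libraries (16.8-fold), and Retn, resistin, rose 31.1-fold. Injured library 1 was the lowest of its group for both genes and still lay above all uninjured libraries. Ucp1, the defining gene of brown fat, was at 1.6, 1.38 and 0.947 CPM uninjured and 0.0889, 0 and 0.2 CPM injured, under 2 CPM in all 6 libraries. Of the white fat genes 9 were called higher without uninjured libraries 1 and 2 (median 2.15). Of 13 sebaceous gland genes 8 rose and 2 fell, and without uninjured library 2 or without injured library 2 the rises numbered 5 and 5. Among the sebaceous genes Mgst1 rose 3.98-fold.

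Macrophage and mast cell genes rose. Of 22 macrophage genes 18 rose and none fell (median 2.11), and the list summed to 263, 249 and 332 CPM in uninjured and 884, 1422 and 1353 in injured libraries. Called higher were 13 macrophage and 9 mast cell genes without uninjured libraries 1 and 2 (medians 2.07 and 3.13). C1qb, a subunit of complement C1q, rose 14.8-fold from 10 ± 2.74 to 149 ± 39.3 CPM. Folr2, of tissue-resident macrophages, rose 7.4-fold, and Trem2, of lipid-handling macrophages, 6.11-fold. Of 14 mast cell genes 12 rose and 1 fell. Mcpt4, a chymase of connective tissue mast cells, was at 4.04, 2.15 and 1.2 CPM uninjured and 64.3, 84.3 and 114 CPM injured (36.5-fold), and Cma1 rose 32.6-fold. The call of Mcpt2 (adjusted p = 0.0446) rested on injured library 2, with 0.564, 0.0767 and 0 CPM in uninjured and 0, 57.7 and 0.134 CPM in injured libraries 1 to 3. Without that library its log2 fold change was -1.22 in place of 6.64 (adjusted p = 0.51), and the call was also lost without any 1 of the uninjured libraries. Of 32 chemokines 23 rose and 2 fell (median 2.17, or 1.91 without uninjured libraries 1 and 2). Pf4 went from 7.43 ± 3.77 to 103 ± 19 CPM, and Ccl7 and Ccl11 rose 11.2-fold and 10.8-fold.

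Neutrophil markers did not move as 1 group. S100a8 and S100a9, the subunits of calprotectin, which wound keratinocytes also make, rose 196-fold and 64.8-fold, with S100a8 at 0.752, 0.23 and 2.97 CPM uninjured and 351, 233 and 239 CPM injured. The receptors Csf3r (2.35, 0.844 and 0.505 CPM uninjured and 3.2, 2.28 and 3.01 CPM injured) and Cxcr2 (0.846, 0.46 and 7.19 CPM uninjured and 11.1, 12.5 and 11.2 CPM injured) were not called. Without uninjured library 1 Csf3r was called higher (adjusted p = 0.0202), and without uninjured library 3 Cxcr2 was (adjusted p = 0.0233). In the neutrophil list 4 of 13 rose and 3 fell, and 2 rose with the ribosomal RNA covariate. Antigen presentation and interferon genes were mostly not called, with 1 higher and 2 lower of 18, and 3 and 2 of 22. Usp18, which limits interferon signalling, fell 3.68-fold, and Irf8 rose from 6.86 ± 0.708 to 14.2 ± 1.21 CPM.

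Genes of blood vessels rose in 13 of 18 cases and none fell (median 1.04, or 1.14 without uninjured libraries 1 and 2). Egfl7, which endothelial cells secrete, rose 3.83-fold from 14.3 ± 3.53 to 54.7 ± 6 CPM, and Aplnr, the apelin receptor, rose 3.35-fold. Of 20 genes of Schwann cells and myelin 7 fell and 3 rose. The share that fell was near the 32.7% of all genes, against 27.7% of protein-coding genes and 19.2% of genes of 10 to 100 CPM. Prx, periaxin of peripheral myelin, fell from 13.2 ± 1.92 to 4.6 ± 1.45 CPM. Ncam1, an adhesion molecule of Schwann cells that muscle also makes, rose 3.69-fold. Of 23 nerve growth factors and receptors 5 rose and 6 fell (median 0.12), against 22.8% and 32.7% of all genes. The list summed to a mean of 501 CPM in uninjured and 505 CPM in injured libraries. Ntf3 fell 5.03-fold, while Ret rose 4.73-fold and Mdk, midkine, rose from 1.54 ± 0.876 to 25.4 ± 8.7 CPM (16.7-fold).

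Genes of protein synthesis and of respiration rose nearly throughout, and short genes were more often called higher than long ones. Of 78 cytosolic ribosomal protein genes 73 rose and none fell (median 1.27), and of 78 respiratory chain subunits 67 rose and none fell (median 1.34). Rpl38 was at 56.3, 49.8 and 57.7 CPM in uninjured and 399.6, 201 and 234 in injured libraries, and Uqcrq, a subunit of complex III, rose 4.91-fold. Called higher were 40 ribosomal and 48 respiratory genes once uninjured libraries 1 and 2 were left out (medians 1.23 and 1.22). The median exonic length in these lists was 1.75 and 1.74 kb. Among protein-coding genes of at least 10 CPM, those up to 1 kb long had a median log2 fold change of 1.68 (340 genes, 78.2% called higher), those of 1 to 2 kb had 0.86 (1058 genes, 64.5%), and those of over 8 kb had 0.00 (1979 genes, 23.8%). The list medians thus lay between those of the 2 shortest classes. The fibrillar collagens (median length 9.24 kb) and elastic fibre genes (6.37 kb) were longer and had positive medians, and the desmosome genes (5.36 kb) had a negative one. The keratin-associated genes were short as well (median length 0.883 kb), with a median of 10.06. The part of length in the results of these and other lists of short genes was not tested.

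**Figure D4:**
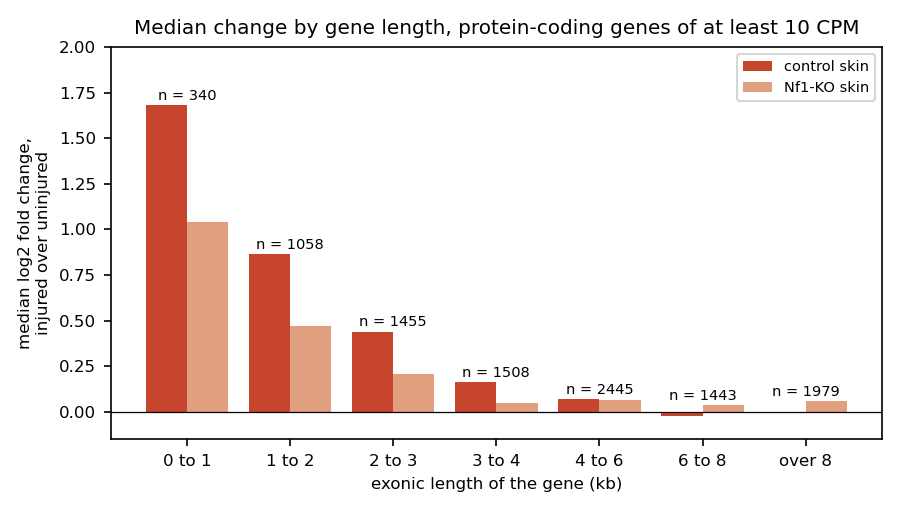
Median log2 fold change with injury (vertical axis) of protein-coding genes averaging at least 10 CPM, by exonic length in kb (horizontal axis, number of genes above the bars), for control skin and for Nf1-KO skin. The median was 1.68 in the shortest class of control skin and near 0 above 4 kb, and it was 1.04 in the shortest class of Nf1-KO skin.

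Injury was also compared between genotypes, to see where the control response differed from that of Nf1-KO skin, whose uninjured and injured libraries are separate from the control ones. The difference between both responses was tested for every gene, and edgeR called 0 of 22945 (0%), with 2477 at an unadjusted p under 0.05 and a smallest adjusted p of 0.0984. DESeq2 called 36 and limma voom 0. Of the 12728 genes called in control skin, 12474 (98%) had a change of the same sign in Nf1-KO skin. The sex markers were split by skin state in the Nf1-KO libraries too. The list medians in control and Nf1-KO skin were 10.06 and 9.66 for keratin-associated genes, 2.78 and 3.22 for elastic fibre genes, and -0.93 and -1.10 for desmosome genes. Skint5 changed by log2 -4.34 and -4.09, and Dbp by -2.54 and -1.89. The fast and slow muscle median was 2.73 in control and 3.95 in Nf1-KO skin, and the receptor background genes had -6.41 and -2.59. Of the 424 tested receptor genes 229 had no count in 1 of the control groups. With these set to a bound of 3 counts, the control median was -4.46. These values stand side by side without a test of each list.

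**Figure D5:**
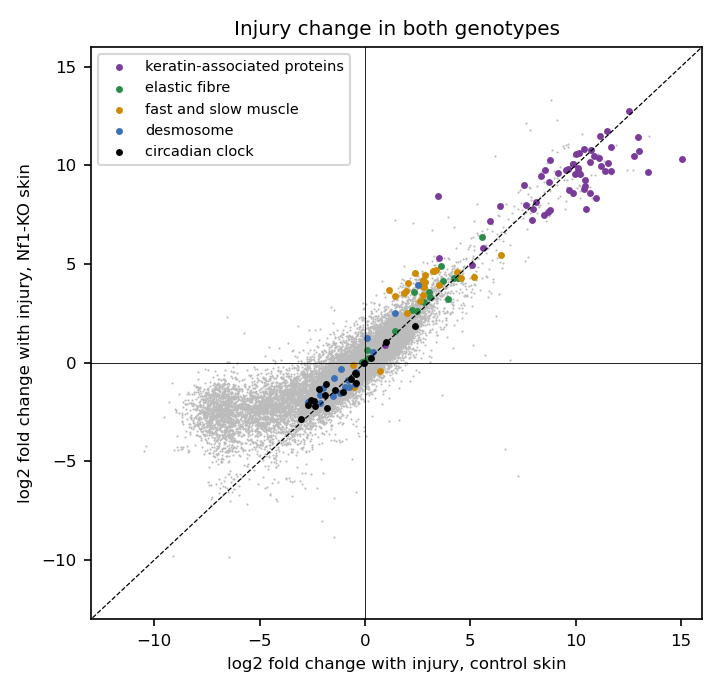
Log2 fold change with injury of each tested autosomal gene in control skin (horizontal axis) and in Nf1-KO skin (vertical axis), in grey, with members of 5 lists coloured and a dashed line of equal change. Most keratin-associated, elastic fibre and muscle genes lie up to the right and most desmosome and clock genes down to the left, with Dsg4 and Nfil3 among the exceptions. The grey cloud at the far left, where the receptor genes lie, has smaller falls in Nf1-KO skin, with receptor medians of -6.41 and -2.59. The control median was -4.46 with genes lacking any count in 1 control group set to a bound of 3 counts.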

How the data were processed

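Whole-skin RNA was profiled in 12 libraries. The authors deposited raw read counts per Ensembl gene, 1 column per library per the file headers. Per the labels' protocols, a fibrous tissue kit was used for extraction, 10 ng was amplified with Smart-Seq v4, and Nextera XT libraries were made. These do not mark the strand, so reads of overlapping genes on opposite strands cannot be told apart by strand. The submitters' processing notes name STAR 2.5.2b, SAMtools, HTSeq 0.5.3, DESeq2, HOMER and mm10, without roles. The sources used here give neither annotation nor strand setting. Of 53379 IDs, 53274 matched GENCODE M21 (GRCm38), 49053 of them autosomal. The number of count columns outside the listed samples, left unused, was 1.

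All libraries were fitted in edgeR 4.0.16 (R 4.3.3) with 4 group means, TMM scaling, the default filter (minimum count 10) and the robust quasi-likelihood test. P-values were 2-sided and adjusted by Benjamini-Hochberg over 23635 genes, including sex-linked ones. Levels are TMM-normalised CPM (mean ± SD over 3 libraries), and fold changes are fitted. On simulated data, with 100 genes changed by each fold among 22211, 19% of 2-fold and 74% of 4-fold changes were recovered. Far more genes were called in the real data, so these shares do not give the sensitivity there. Replicates differed beyond sampling noise (chi-square per degree of freedom 10.9 to 86.8).

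Members, the 73 gene lists and tests were chosen with earlier results of these data known. Named genes are a selection from, per direction, the 20 largest called changes without overlap at 5 CPM or more, the 20 largest in CPM, the 15 smallest p-values and up to 6 called members per list at 1 CPM or more. Genes outside this rule were picked once their values were known. These are marked in the text, or are Krt6a, Krt6b, Krt14, Krt16, Trdc, Egfr, Acta2, Ucp1, Per1, Csf3r and Cxcr2. Alternatives were other scalings, filters, tools (DESeq2 1.42.0, limma 3.58.1), a replicate block, left-out libraries, a ribosomal RNA covariate, a fold threshold and background subtraction.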

Additional observations from a re-analysis of the deposited data

How the results depend on the processing

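The counts of genes called higher and lower stayed within 1.5 times of 5225 and 7503 under both other scalings, with limma voom, the 6 control libraries alone, the ribosomal RNA-like covariate and background subtraction. With no filter the lower calls numbered 12491 and with DESeq2 12004, while the filter of 2 CPM in 3 libraries gave 4990; these settings test different numbers of low genes. Without uninjured libraries 1 and 2 together the calls were 2348 higher and 3655 lower, and against a fold of 2 they were 1767 and 4381. Leaving out 1 control library gave 4131 to 5711 higher and 6472 to 7938 lower. For the difference between injury responses, no filter called 229 genes, DESeq2 36, leaving out uninjured 1 and 2 together 2, the ribosomal RNA-like covariate 1, and leaving out 1 library 0 to 3. The cause was not tested. Samples with the same number did not deviate together (correlations 0.050, -0.052 and -0.029), and the replicate block gave 5160 higher and 7245 lower calls and 0 for the difference. Of 647 genes the rule or the text names, 87 lost their call without at least 1 library, 85 did so with the ribosomal RNA-like covariate, and 195 without uninjured libraries 1 and 2, which leaves 1 uninjured library. Reversed values were Mcpt2 at -1.22 without control injured replicate 2 (8.89 at most, without control uninjured replicate 1), and some list medians of at least 0.5 in size, which no test had called. Smaller medians changed sign more often, as for the FGF family and receptors (0.19 in the fit of all libraries, -0.51 with no filter and -0.78 with DESeq2). The median of neutrophil genes was -0.0244 with the ribosomal RNA-like covariate, and the median of beta-defensins and epithelial S100 was -2.53 with no filter and -2.01 with DESeq2. The median of cartilage and bone was 0.21 with the filter of 2 CPM, 0.59 without uninjured 1 and 2, and 0.23 with background subtracted.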

Other observations

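Hemoglobin genes were higher in injured skin, with Hbb-bs at 6.49, 2.84 and 1.64 CPM in uninjured and 44.5, 72.3 and 54.7 in injured libraries (16-fold). Metallothionein genes, which bind zinc and copper, rose as well: Mt1 went from 373 ± 103 to 1578 ± 442 CPM (n = 3) and Mt2 rose 4.11-fold. Among HOX genes, which record position along the body, 12 of 31 rose and 4 fell. Hoxd8 rose from 6.89 ± 1.3 to 28.4 ± 5.95 CPM and Hoxc8 from 11.1 ± 2.32 to 35.6 ± 2.94 CPM. The labels do not say whether injured and uninjured skin came from the same body site, and this was not tested. Of 15 tested genes of the mammary gland list 6 rose, 1, Esr1, fell and 8 were not called (median 0.80). Wfdc18, from that list, was at 0.188, 0.46 and 1.26 CPM uninjured and 125, 24.6 and 57.1 CPM injured. These libraries also differed in the sex markers.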
